A study of Mus musculus with 8 samples.

Results

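The baseline transcriptome of sorted control haematopoietic stem cells (HSCs) was described from the 4 control libraries of a series of 8 RNA-seq libraries. Members were chosen by label alone: the 4 count columns labelled WT1 to WT4, called controls 1 to 4 here. The other 4 libraries came from mice with a conditional Nynrin deletion (Nynrin CKO, Nynrin fl/fl with Tie2-Cre, a Cre driven by an endothelial and blood-cell promoter), and no value of theirs is compared here. The control mice were C57BL/6, 8 weeks old and labelled wild type, but the protocols give their genotype as Nynrin fl/fl without Cre, so both copies of Nynrin were flanked by loxP sites. About 3000 HSCs per library were sorted from bone marrow by flow cytometry, total RNA was taken, and 5 ng of cDNA entered each library. The series text also names a lower number of cells, so the number sorted is uncertain. Which antigens set the sort gate was not given in the sources used here, nor is it stated that the 4 libraries came from separate mice, so the spread given below is the spread between libraries and may be partly technical.

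HSCs are rare cells of the bone marrow that can copy themselves and form every kind of blood cell, and most of them in an adult rest outside the cell cycle. They are recognised by surface proteins such as KIT, EPCR (the product of Procr) and SLAMF1 and by transcription factors such as HLF and MECOM. Their descendants, the multipotent progenitors, divide more often and gain CD34, FLT3 and CD48. In RNA from sorted bulk cells, fewer cells of a type and less RNA per cell cannot be told apart.

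Levels are given as CPM (counts scaled to a common library size), divided by the length of the gene's merged exons in kilobases (CPM per kb), so that genes can be set beside each other. A gene was counted as detected throughout when it reached 1 CPM per kb in each of the 4 controls. Values of 4 libraries are always given in the order control 1, 2, 3 and 4, and means are given ± SD with n = 4. The 4 libraries are 1 group, so no difference between groups was tested. A gene described as sharing exons overlaps another gene record that holds at least 10% of its counts, so its reads may be split between both.

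Promoter sequences of 4 genes are shown because they stand for the range of the levels below: a stem cell transcription factor and a stem cell surface gene that were detected in all 4 controls, and a neutrophil and a platelet gene that differed widely between them. Each is the 250 bases before the gene start in RefSeq (GRCm38.p6), 5′ to 3′ on the gene's strand, with every CG pair in capitals and, in S100a8, the TATAAA as well. The Hlf window lies at chr11:90390918-90391167 on the minus strand, that of Procr at chr2:155750967-155751216, that of S100a8 at chr3:90668821-90669070 and that of Pf4 at chr5:90772185-90772434, all 3 on the plus strand. The counted records of Procr and S100a8 begin inside these windows, since the annotations place their starts differently.
Hlf: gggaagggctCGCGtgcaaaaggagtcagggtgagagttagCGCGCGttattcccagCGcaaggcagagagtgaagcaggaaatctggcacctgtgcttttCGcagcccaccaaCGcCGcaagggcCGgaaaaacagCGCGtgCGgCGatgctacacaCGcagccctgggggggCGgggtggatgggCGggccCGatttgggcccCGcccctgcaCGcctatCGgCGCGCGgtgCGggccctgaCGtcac
Procr: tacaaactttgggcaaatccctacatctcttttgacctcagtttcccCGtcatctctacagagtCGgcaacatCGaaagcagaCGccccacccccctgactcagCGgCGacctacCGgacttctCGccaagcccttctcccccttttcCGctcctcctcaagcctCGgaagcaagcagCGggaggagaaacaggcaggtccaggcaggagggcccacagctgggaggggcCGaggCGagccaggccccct
S100a8: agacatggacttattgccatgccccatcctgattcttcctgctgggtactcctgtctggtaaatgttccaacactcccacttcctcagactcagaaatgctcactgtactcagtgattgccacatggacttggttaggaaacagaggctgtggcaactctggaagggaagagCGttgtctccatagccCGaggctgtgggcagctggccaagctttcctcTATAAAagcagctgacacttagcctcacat
Pf4: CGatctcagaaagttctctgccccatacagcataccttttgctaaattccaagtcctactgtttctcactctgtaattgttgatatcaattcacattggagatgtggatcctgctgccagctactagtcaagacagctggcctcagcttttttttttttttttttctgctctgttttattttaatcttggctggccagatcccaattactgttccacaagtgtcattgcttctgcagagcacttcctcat
The Hlf window held 26 CG pairs, that of Procr 13, that of S100a8 2 and that of Pf4 1. By the usual measure of a CpG-rich promoter (at least 50% G and C, and at least 0.6 of the CG pairs that base composition gives), 45.9% of the 16777 protein-coding genes with a promoter in the table were CpG-rich, Hlf among them and Procr just outside, at 0.570. TATAAA 40 to 20 bases before the start, searched on the gene's strand, was found in 2.73% of all promoters, and in S100a8 among the 4 shown. Where RefSeq gave several starts for a gene, the start with the most CG pairs was used, which can raise the CpG-rich share.

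CpG-rich promoters went with detection in the controls. Of the 7693 genes with a CpG-rich promoter, 74.5% reached 1 CPM per kb in all 4 controls, against 28.3% of the 9084 other genes. The share of CpG-rich promoters was 16% in genes under 0.1 CPM per kb, 23.7% between 0.1 and 1, 66.0% between 1 and 10, and 69.9% between 10 and 100. Among the gene lists described below, 14 of 23 HSC transcription factors and 19 of 23 G2 and mitosis genes with a promoter in the table were CpG-rich. None of 18 neutrophil genes, 13 mast cell, basophil and eosinophil genes, 13 T and NK cell genes or 15 progenitor and sort-exclusion antigens was. Other lists did not follow the pattern. CpG-rich were 12 of 16 lineage transcription factors and 6 of 6 cyclin and CDK inhibitors, of whose lists 45% and 57.1% were detected. Only 6 of 15 HSC surface markers and 3 of 14 interferon-stimulated genes were CpG-rich, with 90.9% and 100% of these lists detected.

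The libraries held between 36942835 and 50260720 counts, so the level that 3 counts allow was 0.0630 to 0.0793 CPM. Records of ribosomal RNA took 10.1% to 11.0% of counts and genes of the mitochondrial genome 5.98% to 7.44%. Control 4 stood apart in breadth: it had counts in 31344 genes, against 42559 to 44562 in controls 1 to 3. The Y-linked genes Ddx3y, Kdm5d and Uty were present in controls 1 and 2 and had at most 4 counts in controls 3 and 4. Xist, the RNA of the inactive X chromosome, was at 0.69, 0.35, 262 and 262 CPM per kb. The controls thus fell into 2 libraries with Y-linked transcripts and 2 with Xist, which the labels do not mention. Eif2s3y, another Y-linked gene, followed the same division at 19, 8.97, 0 and 0.0404 CPM per kb. Several genes and lists below also set controls 1 and 2 apart from controls 3 and 4. That is the same split of libraries, and its part in those differences was not tested.

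Of 21897 protein-coding genes, 10309 were detected throughout, which is 47.1%. Each count of list members detected throughout that is given below is to be read beside this share. A further 8039 genes had a mean between 0.1 and 1 CPM per kb, and 453 genes, 2.07%, had 0 counts in all 4 controls. The genes between 0.1 and 1 CPM per kb were lower in control 4 than in the others, with a median ratio of control 4 to the mean of the others of 0.232. In that class control 4 was the lowest in 71.7% of genes. From 1 to 10 CPM per kb the median ratio was 1.03, and from 10 to 100 it was 1.15.

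Receptor genes of the olfactory and vomeronasal organs, for which no use in blood is known, show how much signal the libraries gave to silent genes. The 1491 such genes had a median of 0.143 CPM per kb in control 1, 0.146 in control 2, 0.208 in control 3 and 0.0106 in control 4. Their 95th percentile was 0.624, 0.598, 0.951 and 0.170 CPM per kb. A level under 1 CPM per kb in controls 1 to 3 is therefore not above what silent genes can show there, and no expression is read from it. By the threshold of that 95th percentile in each library, chosen after the values were seen, 10883 protein-coding genes (49.7%) were above it in all 4.

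**Figure D1:**
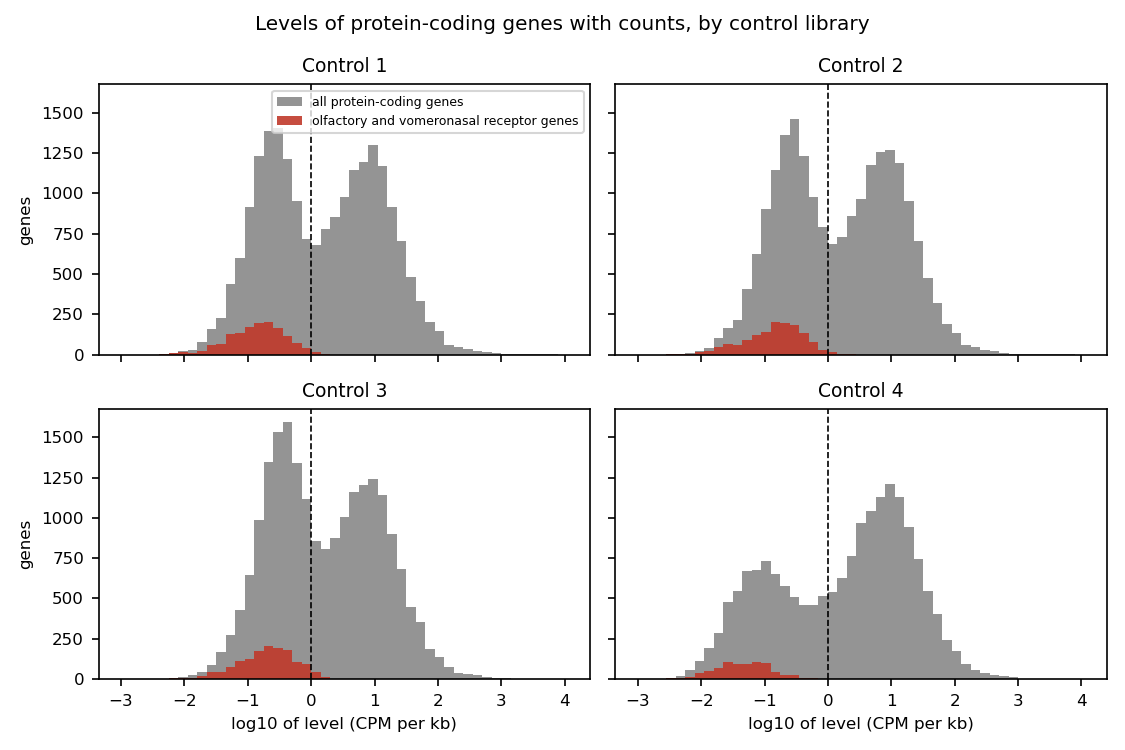
Number of protein-coding genes with at least 1 count (vertical axis) by level in CPM per kb on a log10 axis (horizontal), 1 panel for each control; grey, all protein-coding genes; red, the 1491 olfactory and vomeronasal receptor genes; dashed line, 1 CPM per kb. Each panel has an upper hump near 10 CPM per kb and a lower hump that the receptor genes share, which sits farther to the left and is smaller in control 4.

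The genes with 0 counts in all 4 controls were mostly poorly known records. Of the 453, 256 carried predicted-gene symbols beginning with Gm, 12 were beta-defensins, which are antimicrobial peptides of epithelia, and 8 were olfactory or vomeronasal receptors. No member of the 35 lists of known genes used below was at 0 counts in all 4. The nearest to it was Cdkn2a, with 0, 0, 3 and 0 counts. Control 4 alone had 4225 protein-coding genes at 0 counts.

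Outside the mitochondrial genome, ribosomal proteins and histones, the gene with the highest level was B2m, the shared light chain of MHC class I, at 5504, 3116, 3804 and 4062 CPM per kb. Eef1a1, a translation elongation factor, followed at 1698, 1772, 1888 and 1992. Ubb (ubiquitin), Ptma (prothymosin alpha), the MHC class I heavy chain H2-D1, the tubulins Tubb5 and Tuba1b, the lysosomal membrane protein Laptm5 of blood cells, and Ftl1 (ferritin light chain, which shares exons) made up the rest, with means from 922 down to 626 CPM per kb, apart from 1 predicted gene. That gene, Gm10800, stood at 1360, 1012, 2309 and 134 CPM per kb, lowest in control 4 and highest in control 3, as the medians of the receptor genes were. The 12 protein-coding genes of the highest class held 16% of the summed level, the 291 genes from 100 up to that class held 26.2%, and the 4350 genes between 10 and 100 held 45.5%.

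All 5 label markers of HSCs were present in every control. Kit, the receptor for stem cell factor (chromosome 5, 75574916 to 75656722), was at 196, 197, 170.5 and 176 CPM per kb, rank 132 of all protein-coding genes. Procr (chromosome 2, 155751117 to 155755471) was at 25.7, 32.1, 19.1 and 26.3 CPM per kb, and Slamf1 (chromosome 1, 171767127 to 171801184), whose protein is CD150, at 8.61, 7.93, 4.69 and 5.82. Control 3 was the lowest for all 3 surface genes, with Slamf1 in controls 1 and 2 above controls 3 and 4. Hlf (chromosome 11, 90336536 to 90390895) was at 17.2, 20.1, 21.9 and 23.8 CPM per kb and Mecom (chromosome 3, 29951296 to 30548008) at 8.01, 9.32, 9.15 and 8.69. Their coefficients of variation (CV, SD over mean) were 0.134 for Hlf and 0.0669 for Mecom. The median CV of protein-coding genes with a mean of at least 10 CPM was 0.127, so only Mecom was below it.

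The antigens that mark progenitors were also present, at levels above several stem cell markers. Cd34 was at 109, 117, 146 and 161 CPM per kb, Cd27 at 76.1, 76.4, 78.2 and 95.9, and Flt3, the receptor for FLT3 ligand, at 29.7, 42.7, 52.8 and 61.8. Cd48 was at 22.4, 16.9, 21.4 and 32 CPM per kb, and all 4 genes were highest in control 4. So were 44.9% of all protein-coding genes with a mean of at least 1 CPM per kb, and 29.8% with scaling by total counts. Per length, Cd34 was 5.41 ± 1.81 times Procr and Flt3 1.90 ± 0.777 times Procr (mean ± SD of the ratio in 4 libraries). Slamf1 was lower than Procr, and against it Cd34 was 21.6 ± 9.20, Flt3 7.68 ± 3.86 and Cd48 3.70 ± 1.59 times as high. Cd48 was below Procr in controls 1 and 2 and above it in controls 3 and 4. Transcripts named for stem cells and transcripts named for multipotent progenitors were thus both measured in each library, and which cells carried them was not tested.

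Of 22 HSC surface markers, 20 were detected throughout, with a median of 15.2 CPM per kb over the list. The tetraspanin Cd81 was at 112, 119, 124 and 164 CPM per kb and Ly6a, which encodes SCA-1, at 95.4, 104, 55.7 and 116 CPM per kb, lowest in control 3. The ABC transporter gene Abcg2, which gives stem cells their dye efflux, was even across libraries at 17.1, 17.6, 17 and 18.2 CPM per kb. Fgd5, a reporter gene locus of HSCs, varied most, at 5.41, 8.62, 4.28 and 4.17. Thy1 at 0.439, 0.548, 0.476 and 0.323 and Prom1, which shares exons, at 0.315, 0.576, 0.405 and 0.117 CPM per kb were within the range of the receptor genes in controls 1 to 3. Control 3 was the lowest library for 17 of the 20 markers with a mean of at least 1 CPM per kb, where 32.0% of all such protein-coding genes had control 3 lowest.

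**Figure D2:**
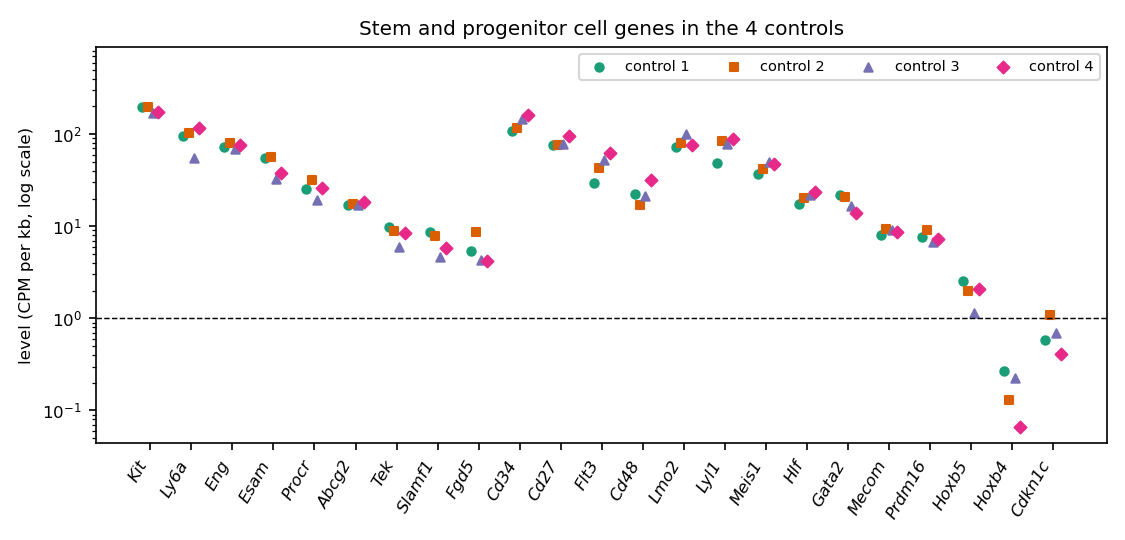
Level in CPM per kb (vertical axis, log scale) of 23 stem and progenitor cell genes in each of the 4 controls (1 symbol per library); dashed line, 1 CPM per kb. The symbols of most genes lie close together, Cd34 stands above Procr and Slamf1 in every library, and Hoxb4 lies below the line in all 4.

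Of 19 progenitor and sort-exclusion antigens, 11 were detected throughout, among them the T cell antigen Cd4, with a mean of 1.97 ± 0.563 CPM per kb. Other lymphocyte antigens were lower. Cd3e, a subunit of the T cell receptor complex, was at 0.264, 0.088, 0.466 and 0.0978 CPM per kb, Cd8a at 0.202, 0.12, 0.174 and 0 and the B cell antigen Ms4a1 at 0.0425, 0.137, 0.102 and 0.0272. These values lay within the receptor gene range of each library. Ly6c2, a monocyte antigen, was the most variable at or above a mean of 1 CPM per kb, at 1.43, 1.52, 1.04 and 0.406, and was low in control 4. Ptprc, the pan-leukocyte CD45, was at 20.6, 17.6, 20.3 and 22.1 CPM per kb.

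Among 29 HSC transcription factors, 25 were detected throughout and the median was 9.05 CPM per kb. The highest were Lmo2 at 72.3, 80.4, 101 and 77.1, its partner Lyl1, which shares exons, at 48.5, 84, 78.8 and 88.2, and Myct1, a nuclear MYC target, at 62.8, 59.1, 41 and 62.6 CPM per kb. Lyl1 was lowest in control 1 and Myct1 in control 3, while Lmo2 was highest in control 3. The ETS factors Fli1 and Erg were at 50.9, 49.1, 39.3 and 47.5 and 22.2, 30.4, 20.8 and 25.4 CPM per kb, and the HOX cofactor Meis1 at 37.4, 41.5, 49.9 and 47.7. The HOXA genes lay in the order Hoxa9, Hoxa7, Hoxa10 and Hoxa5, with means of 14.5 ± 4.13, 6.06 ± 1.32, 5.06 ± 0.627 and 2.83 ± 0.524 CPM per kb. The difference between Hoxa7 and Hoxa10 was smaller than the SD of Hoxa7.

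Gata2, a zinc finger factor of stem and progenitor cells, was at 22, 20.6, 16.5 and 13.8 CPM per kb, highest in controls 1 and 2, and was 1.98 ± 0.412 times Gata1 per length. Gfi1b was at 39.8, 24.5, 35.2 and 46.5, Etv6 at 34.1, 31.8, 28.6 and 35.4 and the corepressor Cbfa2t3 at 29.8, 29.6, 26.2 and 27.8 CPM per kb. These 3 stood among the 8 highest of the list. Others detected were Nkx2-3 (17 ± 2.71), Bcl11a (16.5 ± 1.23), Runx1 (9.05 ± 1.17), Prdm16 (7.65 ± 1.02), Ldb1 (6.44 ± 0.526, shares exons), Tal1 (5.49 ± 0.757) and Ikzf2 (4.38 ± 0.357) in mean CPM per kb ± SD. Hoxb5, which shares exons and is a reporter locus for long-term HSCs, was at 2.58, 1.96, 1.16 and 2.08 CPM per kb. The 4 that were not detected throughout were Gfi1 at 1.34, 1.75, 0.879 and 1.23, Hmga2, a fetal stem cell factor that shares exons, at 1.1, 1.88, 1.17 and 0.918, Hoxb4 at 0.266, 0.13, 0.227 and 0.0655 and Sox17, an endothelial and fetal HSC factor that shares exons, at 0.0551, 0.22, 0.194 and 0.0572 CPM per kb. Gfi1 was short of 1 CPM per kb in control 3 and Hmga2 in control 4, whereas Hoxb4 and Sox17 were within the receptor gene range in controls 1 to 3.

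Of 20 transcription factors of the mature lineages, 9 were detected throughout, which is 45% and close to the 47.1% of all protein-coding genes. The leading ones were Nfe2, a megakaryocyte and erythroid factor, at 107, 116, 91.2 and 154 CPM per kb, Spi1, which encodes PU.1, at 37.2, 40.3, 38.4 and 51.3, and the lymphoid E protein Tcf3 at 10.6, 14.9, 11.9 and 15.2. Gata1 was highest in control 1, at 15.2, 8.84, 7.23 and 7.37 CPM per kb, and Spi1 was 4.82 ± 1.88 times Gata1 per length. Bcl11b, a T cell factor, at 0.0713, 0.0538, 0 and 0.0492 and Cebpb, a myeloid factor that shares exons, at 0.14, 0.0341, 0 and 0 CPM per kb were at or near 0. Pax5 and Ebf1, the factors that set the B lineage, had means of 0.227 ± 0.207 and 0.111 ± 0.0729 CPM per kb, both in the receptor gene range of controls 1 to 3.

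The inhibitors of cyclin-dependent kinases, which hold cells out of the cycle, were low apart from 1. Cdkn2d (p19) was at 22.1, 22.2, 23.2 and 30 CPM per kb. Cdkn1a (p21) was at 5.38, 5.29, 2.42 and 3.88, Cdkn1b (p27) at 2.41, 2.78, 2.71 and 2.72 and Cdkn2c (p18) at 2.21, 1.96, 1.2 and 2.94 CPM per kb. Cdkn1b was even across libraries, while Cdkn1a and Cdkn2c were lowest in control 3. Cdkn1c (p57), an inhibitor tied to HSC quiescence, was at 0.58, 1.09, 0.7 and 0.412 CPM per kb and reached 1 in control 2 only. Cdkn2b (p15) at 0.17, 0.148, 0.456 and 0 and Cdkn2a (p16 and p19ARF) at 0, 0, 0.0676 and 0 CPM per kb were within the receptor gene range in each library. In all, 4 of the 7 were detected throughout.

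Of 17 genes that drive or gate the G1 phase, 16 were detected throughout, with a median of 10.8 CPM per kb, below the level of Cdkn2d. Myc was the highest, at 179, 228, 222 and 226 CPM per kb, Cdk4, which shares exons, at 106, 109, 133 and 149 and Cdk6 at 57.3, 44.9, 33.4 and 44.6. Myc was lowest in control 1, and Cdk6 was highest there. The lowest members were E2f2 at 1.53, 1.18, 1.79 and 1.3 and the retinoblastoma gene Rb1, which shares exons, at 1.61, 1.34, 0.861 and 1.18 CPM per kb, and Rb1 was the member not detected throughout. Among the D cyclins, Ccnd2 held 65.4% ± 8 of the summed level, Ccnd3 25.5% ± 8.51 and Ccnd1 9.14% ± 1.88, the last 2 sharing exons. Ccnd3 varied most among G1 genes, at 26, 13.2, 10.4 and 13 CPM per kb, with control 1 above the other 3.

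Of 25 regulators tied to quiescence, 21 were detected throughout, with a median of 7.05 CPM per kb. Egr1, an early response factor that restrains HSC division, led at 144, 126, 79.5 and 206 CPM per kb, followed by Txnip at 102, 121, 97.7 and 92.3 and Trp53 (p53) at 92, 98.9, 91.9 and 117. Of 3 FOXO factors, Foxo3 was at 27.9, 33.5, 20.8 and 23.3 CPM per kb, Foxo1 at 1.25, 1.25, 1.06 and 0.773 and Foxo4 at 0.422, 0.67, 0.5 and 0.476. Foxo3 was the highest of the 3 in every control. Klf4 was at 0.716, 0.16, 0.407 and 1.09 CPM per kb, and the RNA decay factor Zfp36l1 varied most, at 26.8, 6.09, 6.34 and 9.67, with control 1 far above the rest.

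All 28 S phase genes were detected throughout, with a median of 28.1 CPM per kb, the 92.5th percentile of protein-coding genes. The replicative helicase subunits Mcm6, at 120.2, 127, 165 and 158, and Mcm7, which shares exons, at 80.8, 87.8, 99.6 and 99.1 CPM per kb, and the sliding clamp Pcna, at 96.1, 86.9, 115 and 108, led the list. All 3 were higher in controls 3 and 4 than in controls 1 and 2. The replication factor gene Gins3 was among the lowest, at 7.21, 8.08, 8.16 and 8.07 CPM per kb. Control 1 was the lowest library for 20 of the 28 genes (25.4% of protein-coding genes with a mean of at least 1 CPM per kb had control 1 lowest) and control 3 the highest for 18 (12.9% had control 3 highest). Fen1, a flap endonuclease that shares exons, varied most, at 35.5, 38.8, 57.2 and 28 CPM per kb.

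G2 and mitosis genes had another pattern among the libraries. Of 28, 27 were detected throughout, with a median of 11.7 CPM per kb. The leading members were the mitotic activator Cdc20, which shares exons, at 56.8, 45.6, 45.7 and 51.8, the cyclin Ccnb2 at 63.8, 42.1, 45.8 and 46.4 and the cyclin Ccna2, which shares exons, at 34.4, 26.3, 29.4 and 25.2 CPM per kb. Mki67, the gene of the proliferation antigen Ki-67, was at 14, 12.2, 11.2 and 9.58 CPM per kb. Control 1 was the highest library for 21 of the 27 genes with a mean of at least 1 CPM per kb, against 20.2% of all such genes, and for none of them was control 2 or 4 the highest. Cenpf at 2.63, 2.2, 2.44 and 1.68 and Foxm1 at 0.434, 0.758, 0.946 and 1.27 CPM per kb were the lowest, and Cenpe varied most, at 4.72, 2.95, 3.56 and 2.54. Control 1 was therefore lowest in most S phase genes and highest in most mitosis genes.

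Of 28 receptors for cytokines and niche signals, 24 were detected throughout, with Kit and Flt3 among the highest. The G-CSF receptor Csf3r was at 40.7, 38.1, 37.1 and 46.5 CPM per kb, the interferon receptors Ifngr1 and Ifnar1 at 29.4, 29.4, 41.5 and 35 and 19.2, 22.2, 18.6 and 23. The angiopoietin receptor Tek was at 9.83, 8.82, 6.01 and 8.39 CPM per kb, lowest in control 3. Il7r, the receptor of lymphoid progenitors, at 0.524, 0.517, 0.703 and 0.874 and the leptin receptor Lepr of marrow stroma at 0.474, 0.921, 0.75 and 0.22 CPM per kb were not detected throughout. Cxcr4, which keeps stem cells in the marrow, was at 3.5, 3.26, 2.35 and 2.21 CPM per kb.

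Of 23 adhesion and homing genes, 20 were detected throughout. The small GTPases Cdc42, at 149.5, 142, 167 and 173, and Rac2, at 103, 108, 126 and 134 CPM per kb, and the selectin ligand Selplg, at 44.3, 47.1, 42.7 and 53.5, were highest. Rac1, which shares exons, was at 32, 34.8, 29.5 and 83.7 CPM per kb, and control 4 lay above the other 3. The integrins Itgb1 and Itga4 were at 26.8, 30.6, 27.3 and 31 and 18.6, 16.7, 16.6 and 17.1 CPM per kb. The cadherins Cdh5 at 0.138, 0.403, 0.39 and 0.135 and Cdh2 at 0.108, 0.127, 0.0688 and 0.0521 were within the receptor gene range of controls 1 to 3.

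Genes of mature blood cells were measured as lists of 15 to 22 members, and the neutrophil genes differed widely between libraries. Their summed level was 568, 455, 373 and 522 CPM, and 7 of 20 (35%) were detected throughout, against 47.1% of all protein-coding genes. That count was 12 at a threshold of 0.5 CPM per kb, 10 without control 3 and 15 on the TPM scale, on which values are larger. Prtn3, a primary granule protease that shares exons and is also used by progenitors, differed little at 101, 84.1, 73.8 and 91.4 CPM per kb, and myeloperoxidase, Mpo, was at 19.3, 24.3, 26 and 32.3. The calprotectin genes S100a8 at 75, 18.7, 6.97 and 33 and S100a9 at 45.4, 12.3, 3.24 and 17.5 CPM per kb, by contrast, were highest in control 1 and lowest in control 3. Elane, neutrophil elastase, was at 11.5, 13.9, 0.805 and 0.768 CPM per kb, and controls 1 and 2 stood above controls 3 and 4. Ngp, a secondary granule protein, was at 23.6, 15.6, 1.64 and 18.3 and Camp at 6.9, 3.62, 1.05 and 3.77 CPM per kb. Fcnb at 1.22, 0.441, 0.217 and 0 and Cebpe at 0.699, 0.972, 0 and 0.0508 CPM per kb were the lowest of the list.

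Eosinophil, basophil and mast cell genes divided the libraries too. Their summed level was 96.9, 90.7, 36.5 and 35.3 CPM, and 3 of 15 were detected throughout: the transcription factor Gata1, the carboxypeptidase Cpa3 at 6.79, 2.5, 2.73 and 5.8 and the IgE receptor subunit Fcer1a at 6.24, 1.85, 2.44 and 1.33 CPM per kb. Prg2, the eosinophil major basic protein, was at 18.4, 49.2, 3.28 and 0.1 CPM per kb, highest in control 2 and close to 0 in control 4. Epx, eosinophil peroxidase, was at 0.932, 4.39, 0.386 and 0.269 and the basophil protease Prss34 at 9.29, 1.01, 0.195 and 0 CPM per kb. Both were under 1 CPM per kb in controls 3 and 4. The mast cell proteases Cma1 at 0.555, 0, 0.194 and 0.0771 and Mcpt4 at 0.332, 0.255, 0.143 and 0 CPM per kb were the lowest.

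Megakaryocyte and platelet genes were higher in control 1 than in the other 3. Their summed level was 1055, 568, 521 and 595 CPM. Of the 16 genes with a mean of at least 1 CPM per kb, 14 were highest in control 1, against 20.2% of all such protein-coding genes. Pf4, platelet factor 4, was at 119, 15.6, 22.1 and 16.3 CPM per kb, the platelet integrin Itga2b (CD41) at 33.9, 14.6, 11.6 and 13.7 and von Willebrand factor, Vwf, at 5.23, 2.96, 2 and 1.9. The thrombin receptor F2r was at 39.8, 25.7, 22.8 and 23 and pleckstrin, Plek, which shares exons, at 36.9, 19.7, 23 and 23.6 CPM per kb. Controls 2 to 4 lay closer to each other than to control 1 in each of these 5 genes. Gp6, the platelet collagen receptor, at 0.0758, 0.13, 0.242 and 0 and Clec1b, which shares exons, at 0.294, 0.0754, 0.523 and 0.247 CPM per kb were within the receptor gene range in controls 1 to 3. In all, 15 of 20 were detected throughout.

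Erythroid genes were present without a difference of that size. Of 17, 15 were detected throughout, led by carbonic anhydrase 2, Car2, at 576, 429, 574 and 578 CPM per kb. The adult globin gene Hbb-bt followed at 27.4, 34.3, 51.6 and 38.6, and Car1 was at 37.5, 35.5, 22.7 and 33 CPM per kb. The haemoglobin genes together took 0.00573% to 0.00922% of counts. Klf1, the erythroid Kruppel-like factor, was at 12.5, 10.9, 7.93 and 11.3 and the erythropoietin receptor Epor at 7.77, 4.71, 4.58 and 5.23 CPM per kb. The late erythroid genes Slc4a1 (band 3) at 1.47, 2.53, 1.3 and 0.511 and Sptb (beta-spectrin), which shares exons, at 0.426, 0.636, 0.635 and 0.199 CPM per kb were the lowest and were not detected throughout. The list summed to 1730, 1358, 1668 and 1685 CPM.

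**Figure D3:**
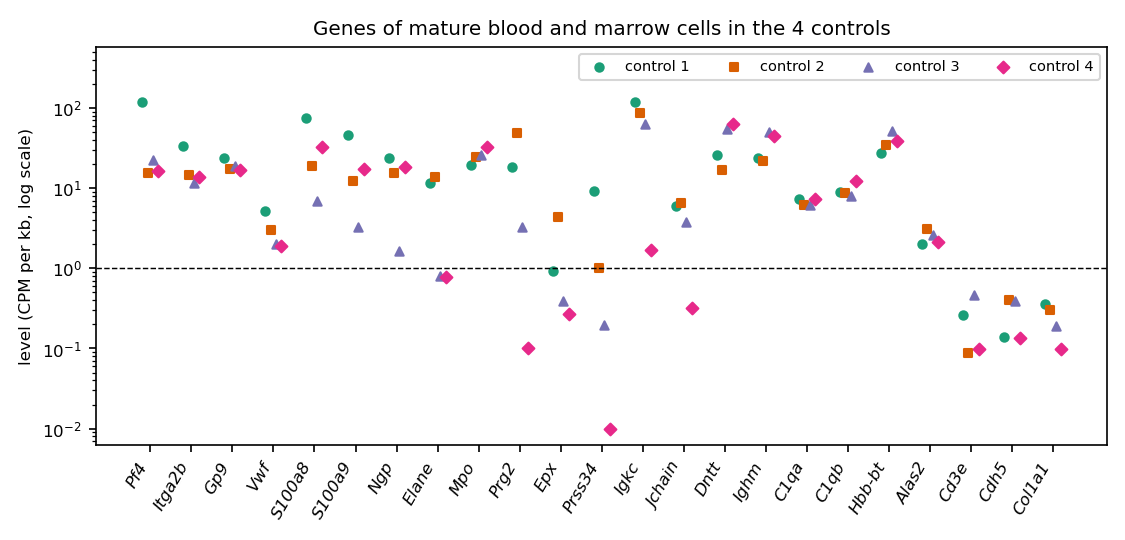
Level in CPM per kb (vertical axis, log scale) of 23 genes of mature blood and marrow cells in each of the 4 controls (1 symbol per library); dashed line, 1 CPM per kb; the value of 0 for Prss34 in control 4 is drawn at 0.01. Pf4, S100a8 and Prss34 are highest in control 1, Prg2, Igkc and Jchain are lowest in control 4, and Cd3e, Cdh5 and Col1a1 lie below the line.

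Most lymphoid genes were not detected throughout, and a few members were high. Of 21 B cell genes, 5 (23.8%) were detected throughout, against 47.1% of all protein-coding genes. At a threshold of 0.5 CPM per kb the count was 9, and the list summed to 321, 284, 425 and 396 CPM. Igkc, the constant part of the kappa light chain, was at 119.8, 86.2, 62.5 and 1.7 CPM per kb, far lower in control 4, and Jchain, a gene of plasma cells, at 6.04, 6.59, 3.75 and 0.317. Dntt, terminal transferase, which lymphoid-primed progenitors use, was at 26.1, 16.8, 55.3 and 62.6 CPM per kb and Ighm at 23.6, 22, 50.6 and 44.4. Dntt and Ighm were higher in controls 3 and 4, whereas Igkc and Jchain were higher in controls 1 and 2. The B cell genes Ebf1, Ms4a1 and Cd79a had means of 0.111 ± 0.0729, 0.0772 ± 0.0513 and 0.395 ± 0.37 CPM per kb, under 1, whereas Cd79b, a subunit of the B cell receptor complex, had a mean of 27.7 ± 3.28.

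T and NK cell genes were the lowest of the blood lists, with a median of 0.292 CPM per kb, 3 of 22 detected throughout and sums of 130.4, 103, 119 and 146 CPM. Nkg7, a granule gene that is not limited to lymphocytes, was at 92.5, 55.9, 56.5 and 87 CPM per kb, the kinase Lck at 7.92, 8.58, 13.6 and 15.9 and Cd4 at 1.32, 2.57, 1.71 and 2.28. Cd3g at 0.0804, 0.0392, 0.226 and 0.0385 and the factor Eomes at 0.139, 0.0679, 0.134 and 0.0202 CPM per kb were the lowest. Trbc1, a T cell receptor constant region, varied most at or above a mean of 1 CPM per kb, at 2.28, 0.103, 0.952 and 1.09. The means of Cd3d, Cd3e, Cd3g and Trac were under 1 CPM per kb, whereas those of Trbc1, Cd4 and Lck were above it.

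Of 20 monocyte and macrophage genes, 7 (35%) were detected throughout, against 47.1% of all protein-coding genes. The list summed to 461, 404, 401 and 443 CPM. Lysozyme, Lyz2, was at 272, 222, 224 and 244 CPM per kb, the lysosomal gene Cd68 at 14.1, 19, 18.2 and 25.4, and the complement genes C1qb at 8.99, 8.73, 7.94 and 12.4 and C1qa at 7.33, 6.14, 6.1 and 7.25. Lyz2 and C1qa had all 4 values within 1.5-fold, and Cd68 and C1qb were highest in control 4. Ccr2, the receptor of inflammatory monocytes, at 0.144, 0.243, 0.293 and 0.174 and F13a1, which shares exons, at 0.281, 0.213, 0.263 and 0.0467 CPM per kb were the lowest. The C1q genes, which belong to tissue macrophages, were thus above 1 CPM per kb in every library while the macrophage surface gene Adgre1 was at 1.27, 1.16, 0.947 and 0.674.

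Of 15 dendritic cell genes, 6 (40%) were detected throughout, near the 47.1% of all protein-coding genes. The list summed to 519, 616, 474 and 554 CPM. The MHC class II genes Cd74 at 73.4, 100.3, 61.1 and 68.8 CPM per kb, H2-Ab1 at 35.5, 46.4, 34.8 and 49.9 and H2-Aa at 17.9, 28, 14.8 and 19.1 were among the 4 highest, with the interferon-inducible Bst2 at 83.1, 47.4, 54.7 and 66.8. Control 2 was highest for Cd74 and H2-Aa. The dendritic cell genes Siglech, Itgax and Cd209a had means of 0.701 ± 0.384, 0.44 ± 0.171 and 0.155 ± 0.0982 CPM per kb. Batf3 was at 0.23, 0.177, 0.232 and 0 CPM per kb.

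Endothelial and stromal cells share the marrow with HSCs, and their marker genes ranged from well detected to near the floor. Of 20 endothelial genes, 8 (40%) were detected throughout, near the 47.1% of all protein-coding genes. Of these 8, 3 (Eng, Tek and Tie1) are also in the HSC surface list. The endothelial list summed to 696, 781, 649 and 733 CPM. Eng, which shares exons, was at 72.1, 80.3, 68.5 and 76.8 CPM per kb, Tie1 at 28.9, 30.9, 16.6 and 20 and Egfl7, which shares exons, at 18.6, 22.4, 24.5 and 29.4. Cldn5, a tight junction gene, varied most, at 5.11, 11.7, 4.24 and 4.18 CPM per kb, highest in control 2. Of 6 endothelial markers, Pecam1, which blood cells also use, and Emcn were detected throughout, with means of 11.9 ± 1.54 and 7.1 ± 0.485 CPM per kb. Plvap had a mean of 2.19 ± 1.19 and was under 1 in control 1, and Ly6c1 had a mean of 0.684 ± 0.258. Cdh5 (given above) and Kdr at 0.69, 0.364, 0.521 and 0.149 CPM per kb did not reach 1 in any control. Flt1 was at 0.14, 0.154, 0.264 and 0.0529.

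Of 17 stromal and bone genes, 5 were detected throughout, 4 with DESeq2-style size factors and 3 with scaling by total counts, with sums of 852, 787, 741 and 789 CPM. Angpt1, the angiopoietin that binds the TEK receptor, was at 128, 114, 108 and 115 CPM per kb, among the highest ranks of all genes at 228, and the bone factor Runx2 at 11.2, 10.8, 10.8 and 14.3. Pdgfrb was at 5.19, 7.19, 3.96 and 7.54 CPM per kb, and the niche chemokine Cxcl12 had a mean of 3.01 ± 1.38. The collagen gene Col1a1 had a mean of 0.237 ± 0.116 and Col3a1 was at 0.0589, 0.102, 0.17 and 0.0342 CPM per kb, Acan at 0.0986, 0.0653, 0.0637 and 0. Adipoq, an adipocyte hormone, varied most, at 3.79, 2.23, 4.25 and 1. Kitl, the niche ligand of KIT, had a mean of 0.121 ± 0.1 CPM per kb, within the receptor gene range of controls 1 to 3.

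A list of 24 genes of other organs gave a reading of the floor with known genes. Its median was 0.206 CPM per kb, and 1 member was detected throughout: Ddx4, a germ cell helicase, at 3.12, 2.56, 5.22 and 3.6 CPM per kb. Lgr5 at 0.953, 1.08, 1.02 and 0.753 and Actn2 at 0.61, 0.507, 0.654 and 0.404 followed. Neurod1, which shares exons, at 0, 0.0376, 0.116 and 0 and Cdx2 at 0, 0.113, 0 and 0 CPM per kb were the lowest. The list's median was 0.184 in control 1, 0.222 in control 2, 0.317 in control 3 and 0.0442 in control 4, the same order as the medians of the receptor genes.

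Of 23 glycolysis genes, 21 were detected throughout, with a median of 20.2 CPM per kb. Aldoa was at 268, 283, 281 and 321 CPM per kb, Ldha at 226, 207, 232 and 257 and Pkm at 153, 192, 215 and 238. All 3 were highest in control 4, as were 44.9% of all protein-coding genes with a mean of at least 1 CPM per kb. Gapdh, which shares exons and has many near-identical pseudogenes, was at only 4.64, 7.04, 9.48 and 9.78 CPM per kb, so its level is uncertain. Slc16a3, a lactate exporter, at 1.86, 0.806, 1.65 and 1.22 and neuronal enolase Eno2 at 0.721, 0.818, 0.466 and 0.915 CPM per kb were the lowest, and Slc16a3 varied most.

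Within families, Aldoa held 96.4% ± 0.767 of the aldolase level, Eno1 97.3% ± 0.160 of the enolases and Pkm 99.4% ± 0.311 of the pyruvate kinases, where Pklr shares exons. The hexokinases were shared between Hk1 (51.8% ± 5.68), Hk3 (38.8% ± 4.72) and Hk2 (7.87% ± 1.35), with Hkdc1 at 1%. Pfkl held 63.4% ± 3.27 of the phosphofructokinases, before Pfkm (29.1%) and Pfkp (7.54%), which both share exons. Lactate dehydrogenase was 77.7% ± 1.14 Ldha and 22.2% ± 1.19 Ldhb, with Ldhc at 0.0980%. Glucose transporters were Slc2a1 (56.9% ± 3.71) and Slc2a3 (42.3% ± 3.76), with Slc2a2 and Slc2a4 under 1% each. These shares compare levels per length within a library, so scaling between libraries does not enter them.

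The kinases that switch off pyruvate dehydrogenase were led by Pdk3. Pdk3 held 60% ± 2.45 of the family's level, Pdk2 26.0% ± 4.31 and Pdk1 13.9% ± 1.95. Pdk3 was at 56.9, 57.2, 59.3 and 63.7 CPM per kb and Pdk1 at 11.7, 12.5, 15.3 and 15.5. Pdk4, which fasting muscle and liver use, was at 0.142, 0.153, 0.113 and 0.0718 CPM per kb, 0.122% of the family. In the list of 19 hypoxia and fuel switch genes, 16 were detected throughout. Hif1a was at 54.6, 55.9, 64.4 and 58 CPM per kb, while Epas1, which encodes HIF-2 alpha, had a mean of 0.67 ± 0.299. Vegfa was at 0.0982, 0.251, 0.16 and 0.167 CPM per kb, within the receptor gene range, and Egln3, an oxygen sensor, varied most, at 2.67, 2.98, 4.67 and 4.11.

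**Figure D4:**
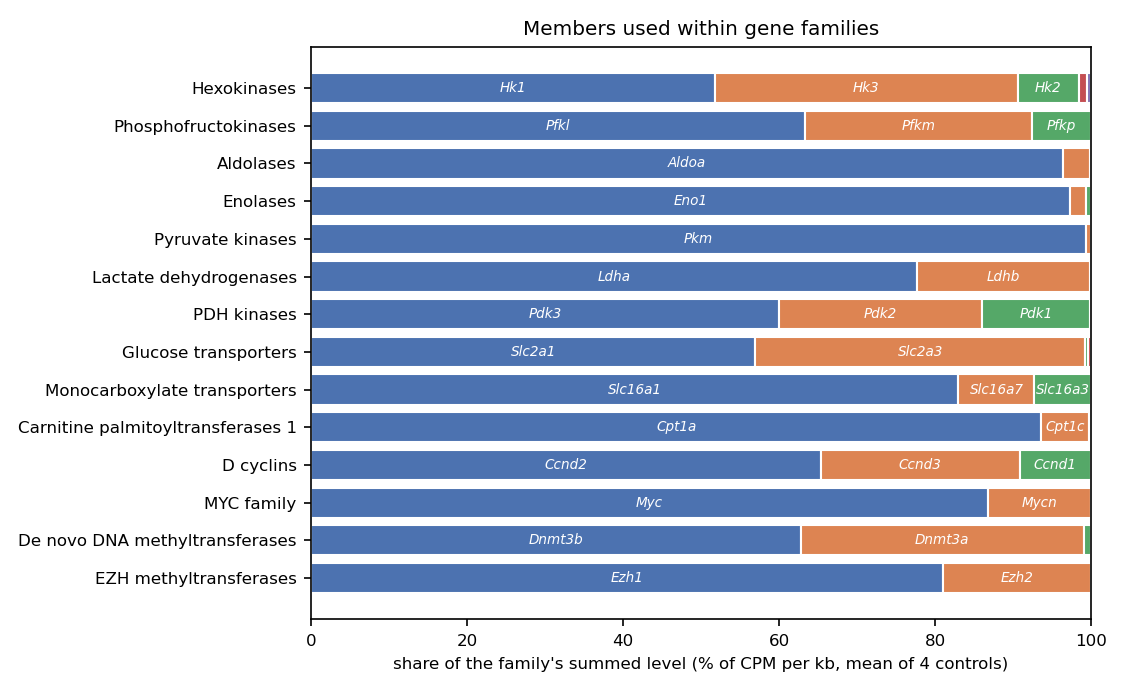
Share of a family's summed level in CPM per kb (horizontal axis, %, mean of 4 controls) held by each member, for 14 gene families (rows); members with over 6% are named. Aldoa, Eno1, Pkm and Cpt1a hold more than 90% of their families, while hexokinases and glucose transporters are divided.

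All 23 genes of the tricarboxylic acid cycle and pyruvate entry were detected throughout, with a median of 45.8 CPM per kb, the 95.9th percentile. Ogdh was at 116, 113, 111 and 124 CPM per kb, Sdhd at 97.1, 96, 109.8 and 141 and Sdha at 97.4, 101, 108 and 122. Mpc2, a subunit of the mitochondrial pyruvate carrier, at 4.65, 4.35, 4.48 and 4.93 and Dlst at 4.31, 3.72, 4.57 and 8.69 CPM per kb were the lowest, and Dlst varied most. Control 4 was the highest library for 23 of 23 genes, where 44.9% of all protein-coding genes with a mean of at least 1 CPM per kb were highest in control 4. With scaling by total counts it was highest for 19 of 23, beside 29.8% of all such genes, since that scaling moves the median log2 ratio of control 4 over all genes from 0.12 to 0.01. By length of the longest transcript, the median log2 ratio of control 4 to the mean of the others went from 0.23 among the 2197 shortest expressed protein-coding genes to -0.01 among the 2197 longest, and the median longest transcript of this list was 2636 bases, against 3282 bases for all. The part of transcript length in these library differences was not tested.

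Nuclear genes of the respiratory chain had the same feature. All 33 were detected throughout, with a median of 54.4 CPM per kb. The ATP synthase genes Atp5b, at 254, 235, 270.2 and 251, and Atp5a1, at 173, 170.1, 177 and 192 CPM per kb, and Cox8a, of cytochrome oxidase, at 184, 143, 163 and 197 led. Ndufs1, which shares exons, at 14.6, 13.7, 16.7 and 17.1 and Ndufab1 at 9.49, 8.2, 10.7 and 11.5 CPM per kb were lowest, and Cox7b varied most, at 58.6, 34.2, 42.6 and 57.3. Control 4 was highest for 26 of the 33, beside 44.9% of all protein-coding genes with a mean of at least 1 CPM per kb. With scaling by total counts it was highest for 17 of the 33, beside 29.8% of all such genes. Control 2 was lowest for 25, where 27.3% of all protein-coding genes with a mean of at least 1 CPM per kb had control 2 lowest. The median longest transcript of this list was 1445 bases, against 3282 bases for all. Its median log2 ratio was 0.23 in control 4 and -0.25 in control 2. Among the 2197 shortest expressed protein-coding genes these ratios were 0.23 and -0.19. The part of transcript length in these differences was not tested.

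The mitochondrial genome's 13 protein-coding genes had a median of 2517 CPM per kb. mt-Co1 was at 7630, 6420, 7123 and 6880 CPM per kb, mt-Cytb at 5871, 5254, 5852 and 6965 and mt-Atp6, which shares exons, at 5344, 5323, 5374 and 5607. mt-Nd6, which shares exons, at 292, 240.3, 299 and 316 and mt-Nd3 at 164, 103, 129 and 118 CPM per kb were the lowest. The highest and lowest member thus differed widely although most are cut from 1 long transcript. Control 2 was the lowest library for all 13, beside 27.3% of all protein-coding genes with a mean of at least 1 CPM per kb. These genes are short, with a median longest transcript of 784 bases. Their median log2 ratio in control 2 was -0.25, beside -0.19 among the 2197 shortest expressed protein-coding genes, and the part of length was not tested.

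Fatty acid oxidation was present with 18 of 23 genes detected throughout and a median of 14.3 CPM per kb. The electron transfer flavoprotein genes Etfb, at 131, 96.9, 115 and 119.9, and Etfa, at 52.3, 49.2, 59 and 71 CPM per kb, and the dehydrogenase Acadl, at 96.6, 69.1, 71.8 and 83.7, led. Of the outer membrane carnitine palmitoyltransferases, Cpt1a held 93.6% ± 1.42, Cpt1c 6.16% ± 1.44 and Cpt1b, the muscle form, which shares exons, 0.197%. The nuclear receptor Ppara was at 0.0822, 0.161, 0.0758 and 0 CPM per kb and Ppard had a mean of 0.604 ± 0.0635. Acads varied most, at 13.2, 15.1, 17.3 and 21.2 CPM per kb. The coactivator Ppargc1b was at 2.85, 2.78, 2.85 and 2.79 CPM per kb, with a CV of 0.0144, the smallest of any listed gene with a mean of at least 10 CPM.

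Of 27 antioxidant genes, 26 were detected throughout. The glutathione peroxidases Gpx1, at 407, 349, 462 and 559, and Gpx4, at 102, 89.6, 91.9 and 107 CPM per kb, and thioredoxin, Txn1, at 168, 117, 143 and 168 led. Catalase, Cat, was at 54.4, 58.2, 55.7 and 70.1 CPM per kb, and the superoxide dismutases Sod1 and Sod2 had means of 12.9 ± 2.01 and 12.5 ± 1.05. Metallothionein 2, Mt2, which shares exons, at 4.78, 1.57, 2.11 and 1.04 CPM per kb varied most. Sod3, the extracellular dismutase, was at 0.464, 0.535, 0.551 and 0.0618 CPM per kb, within the receptor gene range.

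All 21 genes of one-carbon and nucleotide synthesis were detected throughout, with a median of 20.4 CPM per kb. The serine synthesis enzyme Phgdh was at 122, 147, 176 and 195 CPM per kb, the purine enzyme Paics, which shares exons, at 96.3, 109, 123 and 128 and Prps1 at 82.9, 73.3, 93.2 and 95.9. Atic at 6.79, 6.01, 5.39 and 6.03 and Mthfd2 at 3.57, 4.37, 5.16 and 4.53 CPM per kb were the lowest. Umps, of pyrimidine synthesis, varied most, at 39, 39.6, 57.3 and 59.8. Control 1 was lowest for 16 of the 21, beside 25.4% of all protein-coding genes with a mean of at least 1 CPM per kb. It was also lowest for most S phase genes. Tyms belongs to both lists.

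Of 20 autophagy and lysosome genes, 19 were detected throughout, with Tfeb, the master factor of lysosome genes, at 1.04, 0.928, 1.19 and 0.882 CPM per kb just short. Cathepsin D, Ctsd, was at 153, 145, 147 and 179.8, Gabarapl1 at 98.3, 92.3, 77.1 and 104 and the adaptor Sqstm1 (p62) at 75.1, 81.7, 61.8 and 93.1 CPM per kb. Atg16l1 was at 3.33, 3.08, 3.36 and 4.02. Gabarap varied most, at 52.9, 42.1, 36.3 and 51.2 CPM per kb, lowest in control 3.

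Of 20 chromatin regulators studied in HSCs, 19 were detected throughout, and the list was even across libraries: the median log2 ratio of each control to the others stayed between -0.07 and 0.05, and between -0.06 and 0.07 with scaling by total counts. The maintenance methyltransferase Dnmt1 was at 37.7, 37.6, 38.6 and 35 CPM per kb, the Polycomb ligase Rnf2, which shares exons, at 22.4, 20.6, 21.1 and 26 and Ezh1 at 21.8, 24.2, 20.7 and 21. Ezh1 was 4.33 ± 0.610 times Ezh2 per length, and Dnmt3b 1.74 ± 0.187 times Dnmt3a. Kdm6b at 3.13, 2.33, 2.55 and 3 and Ring1 at 0.94, 1.04, 1.3 and 1.29 CPM per kb were the lowest, and the MLL gene Kmt2a varied most, at 15.4, 12, 9.59 and 9.07. Dnmt3l, the partner used in germ cells, had a mean of 0.242 ± 0.156 CPM per kb and shares exons.

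Of 19 imprinted genes, which are read from 1 parental copy, 7 were detected throughout. Grb10 was at 9.88, 10.8, 9.24 and 7.36 CPM per kb, Gnas at 8.11, 8.25, 7.56 and 8.84 and Ndn at 7.42, 8.06, 7.44 and 8.21. Meg3, the maternal long RNA of the Dlk1 locus, was at 1.14, 1.72, 1.22 and 1.6 CPM per kb. The fetal growth genes H19 and Igf2 had a mean of 0.136 ± 0.0773 and values of 0.0276, 0.0807, 0.0508 and 0.0294 CPM per kb, the latter sharing exons, and Zim1 was at 0.0553, 0.0698, 0.0196 and 0. These 3 lay within the receptor gene range of controls 1 to 3.

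Immediate-early genes, which cells switch on within minutes of a stimulus, were high, with a median of 43.6 CPM per kb and 16 of 19 detected throughout. Fos was at 520.2, 226, 287 and 597 CPM per kb, Zfp36 at 237, 162, 156 and 322 and Fosb at 62, 24.2, 28.3 and 60. In these 3, controls 1 and 4 were above controls 2 and 3. Of the 16 genes with a mean of at least 1 CPM per kb, 13 were highest in control 4, against 44.9% of all such protein-coding genes. The median log2 ratio of control 4 to the others was 0.58, against 0.12 over all protein-coding genes. With scaling by total counts it was 0.48, against 0.01. Egr3 at 0.525, 0.367, 0.144 and 0.267 and Egr2 at 0.0851, 0.279, 0.365 and 0.173 CPM per kb were the lowest. RNA quality and the time from marrow to sort are not given, and their part in this difference was not tested.

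Nynrin, the gene deleted in the series, was at 5.99, 6.81, 4.5 and 4.45 CPM per kb in the controls, rank 6789, highest in control 2.

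Spread among the controls was smaller in genes of higher level. Over the 14181 protein-coding genes with a mean of at least 1 CPM, the median CV was 0.162, where counting error alone gives 0.0324, and 56.3% had all 4 values within 1.5-fold. Of these, 1934 had a CV above 0.5, which is 13.6%. The median CV was 0.127 over the 9418 genes with at least 10 CPM, of which 76.9% had all 4 values within 1.5-fold. edgeR's common biological coefficient of variation was 0.300 over the 4 libraries and 0.250 without control 4, against 0.305 to 0.323 without 1 of the others. Of the 9418 genes, 134 had a CV above 0.5, which is 1.42%.

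The 10 genes with the largest CV among those 9418 held 4 Y-linked genes (Eif2s3y, Kdm5d, Ddx3y and Uty), Prg2 and Pf4. Cdk5rap1, which encodes an RNA modifying enzyme, was at 4.76, 3.49, 3.88 and 33 CPM per kb, high in control 4. The predicted genes Gm20716, Gm45717 and Gm45140, which share exons with other records, completed the 10, and the first 2 had counts in control 1 alone. The steadiest listed genes after Ppargc1b were the DNA polymerase subunit Pola1 (CV 0.016), mt-Atp6 (0.0243), Car9, which shares exons (0.0301) and Egln2 (0.0304).

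**Figure D5:**
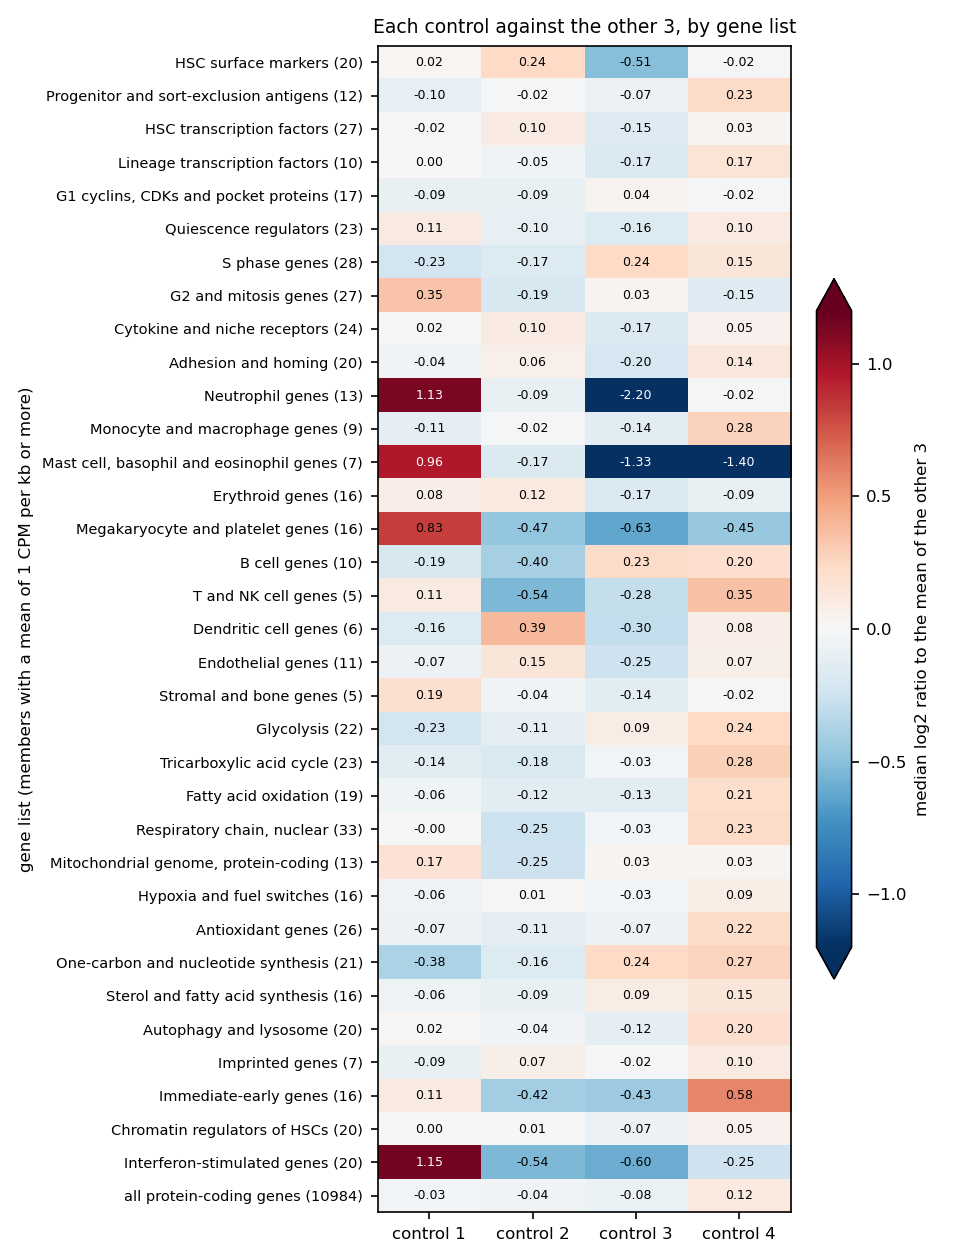
Median log2 ratio of each control to the mean of the other 3 (columns, colour and number) over the members of each gene list with a mean of at least 1 CPM per kb (rows; number of such members in brackets, lists with at least 5); colours end at 1.2 in either direction. Neutrophil, mast cell and megakaryocyte genes, and the interferon-stimulated genes added after the values were seen, are high in control 1. A gene can pass that mean through 1 high library. Immediate-early genes are high in control 4, and chromatin regulators are near 0 throughout.

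Set side by side, several lists of mature cells differed widely between libraries. The median log2 ratio of control 1 to the mean of the others was 1.13 for neutrophil genes, 0.96 for mast cell, basophil and eosinophil genes and 0.83 for megakaryocyte genes, against -0.03 over all protein-coding genes. The interferon-stimulated genes, chosen after the values were seen, were at 1.15. Erythroid genes stayed between -0.17 and 0.12 and monocyte genes between -0.14 and 0.28 in the 4 controls. Control 3 was at -2.20 for neutrophil genes and -0.51 for HSC surface markers, against -0.08 over all genes. HSC transcription factors stayed between -0.15 and 0.10 in every control. All these medians cover genes with a mean of at least 1 CPM per kb, a filter that a gene can pass through 1 high library. They rest on 13 neutrophil genes, 7 mast cell, basophil and eosinophil genes and 16 megakaryocyte genes. Of these, 7, 3 and 15 were detected throughout, and the part of the filter in the ratios was not tested. Whether cells of the mature lineages were among those sorted in control 1 was not tested.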

How the data were processed

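The table holds raw read counts per gene as the authors deposited them, with 1 column for each library per the file headers and no scaling. The submitters' processing notes name mm10 as the build. The aligner, the counter and the strand setting were not given in the sources used here. Records of overlapping or near-identical genes may split reads. Counts of the 4 controls were scaled by TMM factors (edgeR 4.0.16, R 4.3.3, 19130 genes kept by filterByExpr) and divided by merged exon length from GENCODE M21, which 55141 of 55401 gene records matched. A gene with many annotated exons is understated by that length. At 36942835 to 50260720 counts per library, 3 counts equal at most 0.0793 CPM. The spread calculation was tested on simulated data.

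Of the genes of 35 lists, 685 matched and 1 (Ahsp) did not. Members and lists were chosen with earlier results of these data known. Named in each list were the 3 highest and 2 lowest members and the one with the largest CV among those at 1 CPM per kb or more, all members of the transcription factor and inhibitor lists, and family members; further genes were named after their values were seen. Some members are not reported here. The interferon list and the receptor threshold were added after the values were seen. Alternatives were other scalings, lengths and thresholds and leaving out each control.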

Additional observations from a re-analysis of the deposited data

Results flagged for a closer look

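In each group of 4 values printed above and in the summed level of each list, the gap between the highest or lowest control and its nearest neighbour was divided by the range of the 4 values, and values above Dixon's 95% limit for 4 values are given here. Of 242 genes and 36 lists so examined, 23 passed. Chance flags about 1 in 20 groups that were not picked by their values. Some of these genes were named for a large CV or after their values were seen. The number that passed can therefore not be set against that rate. The genes of a list are also not independent of each other.

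Control 1 lay apart on the high side for Pf4 (119 CPM per kb), Itga2b (33.9), F2r (39.8), Prss34 (9.29), Oas2 (90.1), Mx1 (2.69), the summed megakaryocyte and platelet genes (1055 CPM) and the summed interferon-stimulated genes (2412 CPM). The interferon list was chosen after the values were seen because control 1 was high in several members, so its sum, Oas2 and Mx1 restate that choice. Control 1 lay apart on the low side for Myc (179 CPM per kb) and Gins3 (7.21). Control 2 was apart on the high side for Cldn5 (11.7 CPM per kb), Epx (4.39) and Cdx2 (0.113, from 10 counts, and 0 in the other controls), and on the low side for Car2 (429 CPM per kb) and the summed erythroid genes (1358 CPM), in which Car2 is the highest member per length. Control 3 was apart for Cdkn2a (0.0676 CPM per kb, 3 counts) and, on the low side, for Myct1 (41). Control 4 was apart on the high side for Rac1 (83.7 CPM per kb, shares exons), Cdk5rap1 (33), Cd27 (95.9), Cdkn2d (30.0), Runx2 (14.3) and Dlst (8.69).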

How the results depend on the processing

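No paired analysis was possible because the 4 libraries are 1 group and no comparison between groups was made. The count of detected genes (10309) was 10309 with DESeq2-style size factors, 10294 with total counts, 11710 on the TPM scale, 10651 per longest transcript, 11300 at a threshold of 0.5 CPM per kb and 6452 at 5. It ran from 10380 to 10496 when 1 control was left out. Members of the lists detected throughout numbered 493, and 491 to 553 under these settings apart from 393 at a threshold of 5; leaving out 1 control gave 497 to 500. Counts of single lists moved more: at 0.5 CPM per kb mast cell, basophil and eosinophil genes went from 3 to 5, and on the TPM scale B cell genes went from 5 to 10, monocyte genes from 7 to 11, dendritic cell genes from 6 to 10 and T and NK cell genes from 3 to 6. The count of genes with 0 counts (453) was 1853 when up to 10 counts were allowed in each control, and 480 to 662 without 1 control, the highest without control 3 and the lowest without control 4. The median CV (0.162) was 0.295 with no filter on low levels, 0.127 for genes at 10 CPM or more and 0.218 as an SD of log2(CPM + 1), and 0.144 to 0.158 without 1 control, lowest without control 4. The median level over all listed genes (9.87 CPM per kb) was 27.3 on the TPM scale, a unit of its own, 12.7 per longest transcript, and 9.69 to 9.92 without 1 control. With total counts the one-carbon genes were highest in control 3 (15 of 21) more often than in control 4 (4), against 7 and 13 with TMM. Over all protein-coding genes with a mean of at least 1 CPM per kb, the shares highest in controls 3 and 4 also moved. They were 19.6% and 29.8% with total counts and 12.9% and 44.9% with TMM. Depth limits what can be said under 1 CPM per kb, where receptor genes give signal in controls 1 to 3.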

Other observations

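Genes that interferons switch on were looked at as a list of 20, chosen after the values were seen because control 1 was high in several of them, so the counts describe that choice and no more. All 20 were detected throughout, and all 20 were highest in control 1, also with scaling by total counts. Among all protein-coding genes with a mean of at least 1 CPM per kb, 20.2% were highest in control 1. The antiviral synthetase Oas2 was at 90.1, 27.1, 21.5 and 31.7 CPM per kb, the helicase gene Ifih1 at 16.9, 11.9, 8.67 and 10.7 and Isg15, a ubiquitin-like modifier, at 9.49, 2.55, 4.09 and 5.42. Mx1, an antiviral GTPase, was at 2.69, 1.54, 1.34 and 1.34 CPM per kb. Controls 2 to 4 were below control 1 in each, and the summed level of the list was 2412, 1246, 1086 and 1287 CPM. Summed levels of megakaryocyte, of neutrophil and of mast cell, basophil and eosinophil genes were also highest in control 1. The last list was nearly as high in control 2, at 96.9 CPM in control 1 and 90.7 in control 2. Of members with a mean of at least 1 CPM per kb, 14 of 16, 8 of 13 and 5 of 7 were highest in control 1. The part of these lists in the interferon pattern was not tested.

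Sterol and fatty acid synthesis was present in every control, with 15 of 16 genes detected throughout. Acly, which makes cytosolic acetyl-CoA, was at 83.6, 85.7, 85.5 and 91.3 CPM per kb and the sterol-sensing factor Srebf2 at 58.4, 65.5, 54.5 and 53.9. Scd2, a desaturase, varied most, at 19, 6.99, 7.66 and 22.4 CPM per kb, and was higher in controls 1 and 4 than in controls 2 and 3, the division that Fos and Zfp36 also showed. Its relative Scd1 was at 1.96, 1.7, 0.637 and 0.73 CPM per kb, under 1 in controls 3 and 4.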
